A study of Mus musculus with 6 samples.

Results

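The genes that bring fatty acids into fat cells and prepare them for use were examined in perigonadal visceral white adipose tissue (viWAT) of obese mice with and without a deletion of Hmox1, which encodes the heme-degrading enzyme HO-1. The group was set by name and held 9 genes: Lpl, Gpihbp1, Angptl4, Vldlr, Cd36, Slc27a1, Fabp4, Fabp5 and Acsl1. Of these, 8 were found among the 19938 genes to which the array annotation gives 1 symbol, and all 8 were among the 11024 genes tested, those with a log2 intensity above 7 on at least 3 arrays. Acsl1 was not analysed here.

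RNA was measured on 6 Affymetrix mouse gene arrays, 3 per genotype. All mice were on the C57BL/6J background, were homozygous for floxed Hmox1 and ate a high-fat diet (HFD) for 8 weeks from week 6 of age. Hmox1f/f PdgfraCre mice, on arrays 1 to 3, also carried a Cre transgene driven by the promoter of Pdgfra, a gene expressed by adipose precursors (APs). The Hmox1f/f controls, on arrays 4 to 6, carried no Cre, so that effects of Cre itself cannot be told apart from those of deleting Hmox1. Each array held RNA pooled from 2 mice, and the p-values given here measure the spread between such pools. In the labels the material is called bead-purified APs in places and viWAT in others. Genes of mature adipocytes, macrophages and endothelium were all well above the filter on every array, with log2 intensities from 12.74 to 13.10 for Adipoq, from 12.36 to 13.09 for Cd68 and from 10.69 to 11.34 for Cdh5. In such a mixture, fewer cells of a type and less RNA per cell cannot be told apart.

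As a check of the labels, log2 intensities of Hmox1 were 11.25, 11.36 and 10.74 with Cre against 11.90, 11.63 and 12.32 without. These groups did not overlap, and the difference was -0.83 ± 0.23 (SE, limma, adjusted p = 0.266). Marker genes of other cell types, described with the results, also differed between genotypes: all 21 macrophage markers tested were lower with Cre. With the macrophage, endothelial or mature adipocyte marker mean as a covariate the Hmox1 difference was -0.27 ± 0.38, -0.31 ± 0.31 or -0.057 ± 0.14. Arrays Hmox1f/f PdgfraCre 1 and Hmox1f/f 6 stood apart in genes of the epididymis, the organ that adjoins this fat pad, with list means of 7.49 and 7.11 against 5.27 to 5.83 on the other arrays. The 5.83 was on array 3. Adam7, the only gene of this list past the filter, had a log2 intensity of 8.93 on array 3, above its 7.85 on array 6. Leaving out arrays 1 and 6 therefore does not remove all epididymal signal. Without array 6 the Hmox1 difference was -0.65, and without both arrays it was -0.71. Values without array 6, or without both arrays, also stand beside several other results.

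Fatty acids reach an adipocyte by a relay. Lipoprotein lipase is made by the adipocyte, carried across the capillary wall by GPIHBP1 and there frees fatty acids from circulating triglyceride, while ANGPTL4 inactivates the enzyme and the VLDL receptor helps to hold the lipoproteins. CD36 and the transport protein FATP1 take fatty acids into the cell, fatty acid binding proteins carry them through the cytosol, and acyl-CoA synthetases activate them. Several of these genes are targets of the nuclear receptor PPAR gamma and are switched on when a precursor becomes an adipocyte.

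The window of 250 bases before the transcription start was read from RefSeq (mouse build GRCm38.p6) for Cd36 and for both listed starts of Vldlr. The pair is shown because both genes were highest on the same array and lowest on the same array. Of the 9 genes, 4 were in the promoter table, with 8 starts. Capitals mark matches on either strand to the nuclear receptor hexamer AGGTCA or to the CCAAT box CCAAT, which do not overlap each other here, and each run is written 5′ to 3′ on the strand of the gene.
Cd36 (chr5:17835897-17836146, minus strand): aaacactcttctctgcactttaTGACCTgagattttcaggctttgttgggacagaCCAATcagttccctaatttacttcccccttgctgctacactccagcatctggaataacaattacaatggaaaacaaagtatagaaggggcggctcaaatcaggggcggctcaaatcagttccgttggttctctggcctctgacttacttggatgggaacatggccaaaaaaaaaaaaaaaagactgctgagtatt
Vldlr, first start (chr19:27216234-27216483, plus strand): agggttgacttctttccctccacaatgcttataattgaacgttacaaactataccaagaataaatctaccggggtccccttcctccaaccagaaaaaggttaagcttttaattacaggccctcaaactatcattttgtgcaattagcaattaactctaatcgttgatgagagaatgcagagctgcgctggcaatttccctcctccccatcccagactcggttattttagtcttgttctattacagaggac
Vldlr, second start (chr19:27216770-27217019, plus strand): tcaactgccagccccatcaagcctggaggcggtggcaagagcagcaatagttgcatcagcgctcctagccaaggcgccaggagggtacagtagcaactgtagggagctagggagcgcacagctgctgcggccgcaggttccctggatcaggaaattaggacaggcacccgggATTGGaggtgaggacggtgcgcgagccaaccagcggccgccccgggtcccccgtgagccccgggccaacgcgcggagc
In Cd36 the hexamer lay on the reverse strand 228 bases before the start and the CCAAT box lay 195 bases before it. The second Vldlr start had a CCAAT box on the reverse strand 78 bases before it, and the first start had neither motif. Of 32851 RefSeq promoters of this length, 14% held AGGTCA and 33.8% held CCAAT. The direct repeat of this hexamer with 1 base between the copies, found in 0.0335% of promoters, and the TATA box TATAAA, found in 12.4%, matched none of the 8 starts. A match is a description of letters and not evidence of binding.

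Across the 8 genes, most differences between genotypes were small. The log2 difference of Hmox1f/f PdgfraCre from Hmox1f/f was positive for 6 genes and negative for 2, against 42.6% and 57.4% of all genes tested, and had a median of 0.048 against -0.034 over all genes. No gene of the 8 passed an adjusted p of 0.05 (limma, Benjamini-Hochberg over all genes tested), and 0% of all genes did. At an unadjusted p under 0.05, Gpihbp1 was higher with Cre and Fabp5 was lower, where 3.03% and 12.8% of all genes tested were called in these directions and 15.8% in either. The groups did not overlap for Fabp5 only, lower with Cre, as for 21.2% of all genes tested. In the higher direction this held for none of the 8 and for 5.82% of all genes, and in either direction for 27% of all genes.

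**Figure D1:**
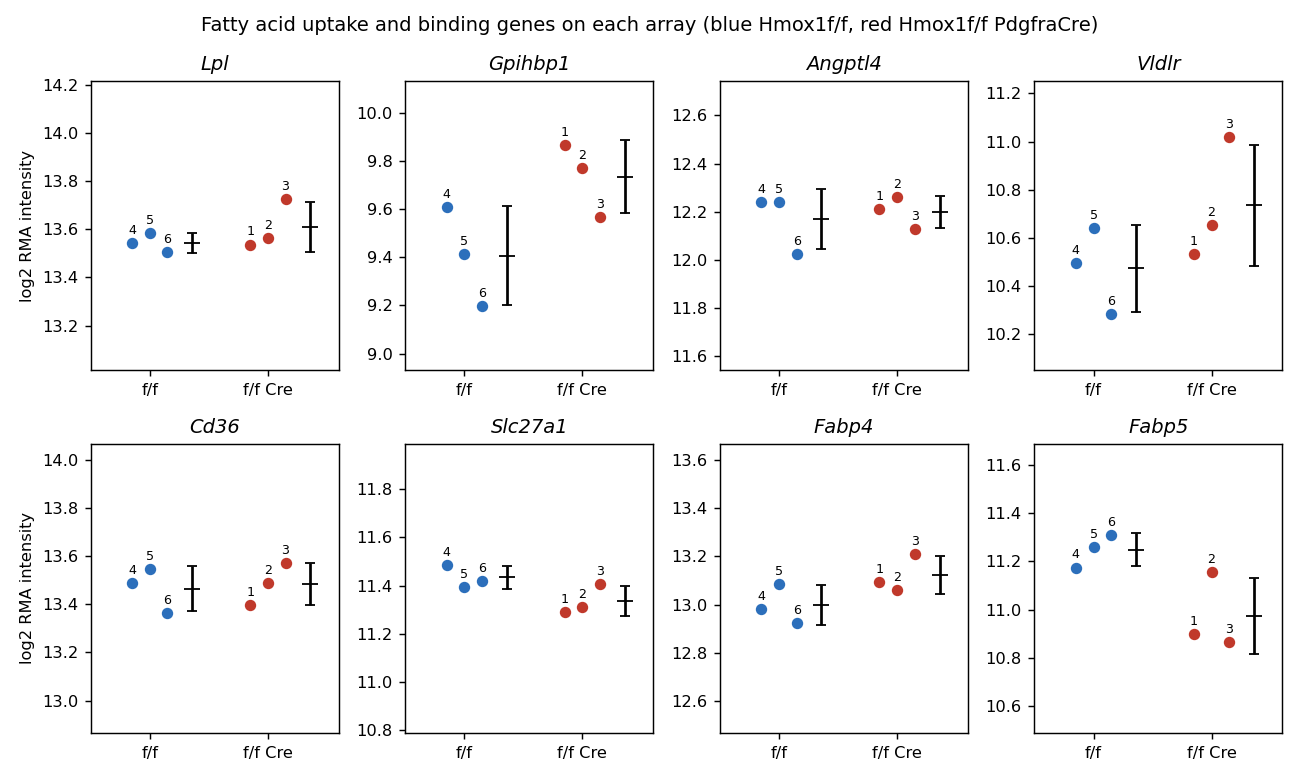
Log2 RMA intensity (vertical axis, 1.2 units tall in every panel) of each gene on each array; blue points are Hmox1f/f and red points Hmox1f/f PdgfraCre, numbers are the array numbers, and bars to the right of the points are the mean ± SD of 3 arrays. Fabp5 is the gene whose red points all lie below the blue ones, and array 6 is the lowest point for 6 of the 8 genes.

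Lpl, the lipase itself, had log2 intensities of 13.54, 13.56 and 13.73 with Cre and of 13.54, 13.58 and 13.50 without. Array 3 was highest, and the other values of both groups lay within a narrow band and overlapped. The means of 13.61 ± 0.10 and 13.54 ± 0.040 (SD, n = 3 each) differed by 0.065 ± 0.080 (SE, adjusted p = 0.685 in limma), and the 95% confidence interval ran from -0.13 to 0.26. The difference was 0.0071 without array 3 and 0.10 without array 1.

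Gpihbp1, which encodes the capillary protein that carries and anchors the lipase, was the member with the largest positive difference. Its log2 intensities were 9.86, 9.77 and 9.57 with Cre against 9.61, 9.41 and 9.20 without. The groups overlapped, because the lowest array with Cre, array 3, lay just below the highest array without, array 4. The difference was 0.33 ± 0.13 (SE), a fold of 1.26, and its 95% confidence interval ran from 0.0088 to 0.65. In limma the unadjusted p was 0.0456 and the adjusted p 0.309. Leaving out arrays 1 and 6, which stood apart in epididymal genes, gave 0.16 ± 0.13.

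Endothelial marker genes differed between genotypes in the same direction as Gpihbp1. Of 20 endothelial markers tested, all 20 were higher with Cre, 12 of them at an unadjusted p under 0.05, as for 3.03% of all genes tested, and none past the adjusted threshold. Their median difference was 0.35. Over all 21 listed, with Clec14a, which was below the filter, the summed intensity was 15605 to 17519 with Cre and 11612 to 14635 without. Array 3 had the highest endothelial mean of the arrays with Cre, 9.40, but the lowest Gpihbp1 of them. Among the controls both fell in order from array 4 to array 6. With the mean of the 20 tested markers as a covariate the Gpihbp1 difference was 0.060 ± 0.20 in limma. It was 0.52 ± 0.25 with the macrophage mean and 0.32 ± 0.25 with the mature adipocyte mean. As the marker means did not overlap between genotypes, the level of the markers and the genotype cannot be told apart with 6 arrays.

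Angptl4, the secreted inhibitor of the lipase, had log2 intensities of 12.21, 12.26 and 12.13 with Cre and of 12.24, 12.24 and 12.03 without. The groups overlapped, and array 6 was lowest. The difference was 0.031 ± 0.089 (SE, adjusted p = 0.871 in limma), and the 95% confidence interval ran from -0.18 to 0.25. Without array 6 it was -0.041.

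Vldlr, the receptor for triglyceride-rich lipoproteins, varied most among the 8 genes, with a range of 0.73 log2 units over the 6 arrays. Its log2 intensities were 10.53, 10.65 and 11.02 with Cre against 10.49, 10.64 and 10.28 without. Array 3 stood highest and array 6 lowest, and the remaining arrays of both groups interleaved. The means of 10.74 ± 0.25 and 10.47 ± 0.18 (SD, n = 3 each) differed by 0.26 ± 0.15 (SE, adjusted p = 0.430 in limma), with a 95% confidence interval from -0.11 to 0.63. The difference was 0.12 without array 3, 0.17 without array 6 and 0.27 without arrays 1 and 6 together.

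Cd36, the fatty acid translocase of the cell surface, had log2 intensities of 13.40, 13.49 and 13.57 with Cre and of 13.49, 13.55 and 13.36 without. The groups interleaved completely, again with array 3 highest and array 6 lowest. The means of 13.48 ± 0.087 and 13.46 ± 0.095 (SD, n = 3 each) differed by 0.019 ± 0.085 (SE, adjusted p = 0.919 in limma), the smallest difference of the 8 genes, with a 95% confidence interval from -0.19 to 0.23. Centring each array on its median turned the sign, to -0.0079, as did leaving out array 3, to -0.024, or array 6, to -0.033. Without arrays 1 and 6 together the difference was 0.012.

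Slc27a1, which encodes the transport protein FATP1, had log2 intensities of 11.29, 11.31 and 11.41 with Cre and of 11.49, 11.39 and 11.42 without. Arrays 1 and 2 were the lowest, and array 3 lay among the controls. The difference was -0.097 ± 0.072 (SE, adjusted p = 0.511 in limma), and the 95% confidence interval ran from -0.27 to 0.076. Its direction was negative under all 18 other settings in which it was fitted, from -0.17 to -0.057.

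Fabp4, the fatty acid binding protein of adipocytes that macrophages and capillary endothelium also make, had log2 intensities of 13.09, 13.06 and 13.21 with Cre and of 12.98, 13.09 and 12.92 without. Array 5 of the controls lay between the arrays with Cre, so that the groups overlapped. The means of 13.12 ± 0.079 and 13.00 ± 0.083 (SD, n = 3 each) differed by 0.13 ± 0.081 (SE, adjusted p = 0.461 in limma), with a 95% confidence interval from -0.070 to 0.32. Without array 3 the difference was 0.081.

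Fabp5, the epidermal type binding protein found in macrophages as well as adipocytes, was the member with the largest negative difference. Its log2 intensities were 10.90, 11.15 and 10.87 with Cre and 11.17, 11.26 and 11.31 in the controls. All arrays with Cre lay below all arrays without, although array 2 came close to array 4. The means of 10.97 ± 0.16 and 11.25 ± 0.068 (SD, n = 3 each) differed by -0.28 ± 0.10 (SE), so that the level was 1.21-fold lower with Cre. The 95% confidence interval ran from -0.52 to -0.033, and in limma the unadjusted p was 0.0315 and the adjusted p 0.284.

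Fabp5 had a second probeset with log2 intensities of 10.72, 10.94 and 10.68 with Cre and of 10.94, 11.07 and 11.12 without. Its difference was -0.27, and arrays 2 and 4 were nearly level. The 2 probesets carry the same accessions and near-identical copies of Fabp5 exist in the mouse genome, so that the probesets may share signal and are not independent measurements. Without arrays 1 and 6 the Fabp5 difference was -0.21 ± 0.13.

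Macrophage marker genes differed between genotypes in the same direction as Fabp5. All 21 macrophage markers tested were lower with Cre, as were 57.4% of all genes, and 14 of them had an unadjusted p under 0.05, as did 12.8% of all genes. None passed the adjusted threshold, and their median difference was -0.40. Over all 22 listed, with Aif1, which was below the filter, the summed intensity was 45388 to 62387 with Cre and 69150 to 71988 without. Among the arrays with Cre, array 2 had the highest macrophage mean, 10.72, and the highest Fabp5. Among the controls, array 4 had the highest macrophage mean, 10.95, but the lowest Fabp5. With the macrophage mean as a covariate the Fabp5 difference was -0.0043 ± 0.15 in limma. It was -0.098 ± 0.16 with the endothelial mean and -0.13 ± 0.17 with the mature adipocyte mean. Because the macrophage means did not overlap between genotypes either, their level and the genotype cannot be told apart.

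**Figure D2:**
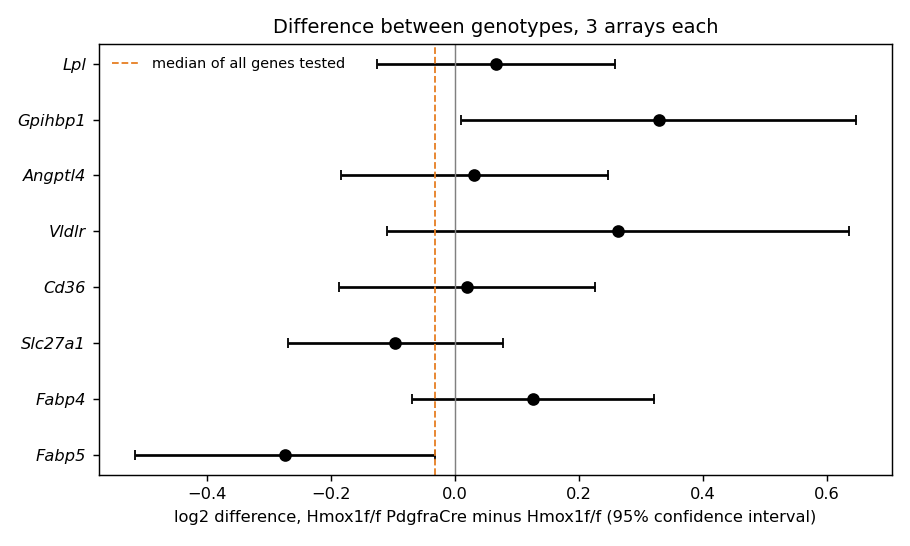
Log2 difference of Hmox1f/f PdgfraCre from Hmox1f/f (horizontal axis) for each of the 8 genes; points are limma estimates from 3 arrays per genotype, bars are unadjusted 95% confidence intervals, the grey line is 0 and the dashed line is the median of all genes tested, -0.034. The intervals of Gpihbp1 and Fabp5 lie to either side of 0 and those of the other 6 genes include it.

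The arrays ordered several of the 8 genes alike. Hmox1f/f PdgfraCre 3 was highest for Cd36, Vldlr, Lpl and Fabp4 and lowest for Fabp5, whereas Hmox1f/f 6 was lowest for all these except Fabp5, for which it was highest, and was also lowest for Gpihbp1 and Angptl4. The mean deviation of the 8 genes from their own means over the arrays was 0.066 on array 3 and -0.12 on array 6, and lay from -0.018 to 0.037 on the other arrays. The mature adipocyte marker mean was likewise highest on array 3, at 11.70, and lowest on array 6, at 11.29.

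Of 23 mature adipocyte markers tested, 22 were higher with Cre and 1 was lower, 8 of the higher at an unadjusted p under 0.05, as for 3.03% of all genes tested, and none past the adjusted threshold. Their median difference was 0.19. Over the 24 markers found, with Cidea, which was below the filter, the summed intensity was 114605 to 126358 with Cre and 100773 to 111858 without. With the mean of the 23 tested markers as a covariate, the differences of Lpl, Vldlr, Cd36 and Fabp4 turned negative, to -0.099, -0.24, -0.18 and -0.049, and none passed an unadjusted p of 0.05. Of 13 adipose precursor markers tested, 5 were higher and 8 lower, against 42.6% and 57.4% of all genes tested, with a median difference of -0.072. Ly6a was also listed but not analysed here. At an unadjusted p under 0.05 in limma 1 was lower, Pi16 at -0.30, as for 12.8% of all genes tested. Its log2 intensities were 6.81, 6.70 and 6.73 with Cre and 7.07, 7.04 and 7.02 without. Pi16 passed the filter only through the controls, where it was higher, so its call carries no weight. Pdgfra itself differed by -0.17 ± 0.081 (adjusted p = 0.355 in limma), or by -0.10 without array 2.

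**Figure D3:**
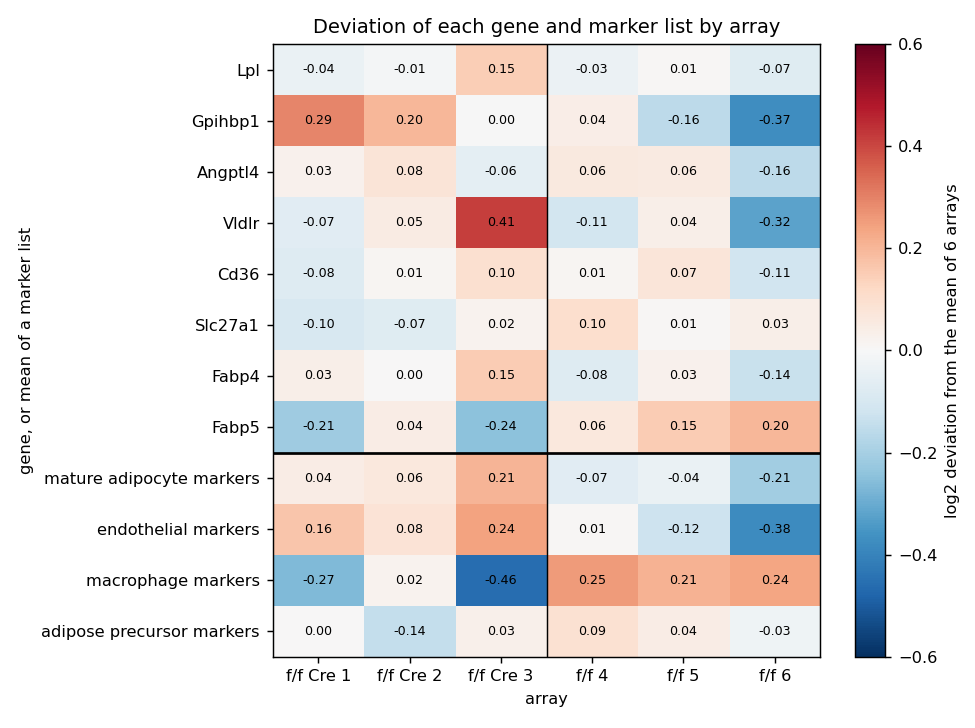
Log2 deviation of each gene, and of the mean of each marker list, from its own mean over the 6 arrays (colour and printed value); columns are arrays, with Hmox1f/f PdgfraCre left of the vertical line and Hmox1f/f right of it, and marker lists are below the horizontal line. Array 3 is warm and array 6 cool for most of the 8 genes and for the adipocyte and endothelial lists, while Fabp5 and the macrophage list show the opposite colours.

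The gene whose log2 values followed each member most closely over the 6 arrays was Sp3 for Lpl (Pearson r = 0.999), Efna1 for Gpihbp1 (0.998), Pde2a for Angptl4 (0.986), Nipbl for Vldlr (0.998), Ccng2 for Cd36 (0.989), Pcsk7 for Slc27a1 (0.995), Nrg4 for Fabp4 (0.997) and Mrps27 for Fabp5 (0.996). These are the best of 10614 genes on 6 arrays that share a normalization, and they are given as a description. A value of 0.95 or more was reached by 393 genes for Vldlr and 350 for Lpl but by 15 for Angptl4.

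Other genes of the pathway were listed by role. Of 84 such genes, 79 were found with 1 symbol and 54 were tested. Of these, 25 were higher with Cre and 29 lower, against 42.6% and 57.4% of all genes tested, with a median difference of -0.014. None passed the adjusted threshold in limma, and 3 were higher and 5 lower at an unadjusted p under 0.05, shares to be read against the 3.03% and 12.8% of all genes. The 30 others, among them Ppara and the liver transporter Slc27a5, were below the filter or were not analysed here.

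Around the lipase, 2 of 6 tested genes were higher and 4 lower. Lipa, the lysosomal acid lipase, had log2 intensities of 12.74, 12.95 and 12.57 with Cre and of 13.13, 13.02 and 13.23 without. The groups did not overlap, and the difference was -0.37 ± 0.12 (SE, adjusted p = 0.267 in limma). With the macrophage, endothelial or mature adipocyte mean as a covariate it was 0.00058, -0.18 or -0.074. Lmf1, which folds newly made lipase, differed by -0.17, or by -0.11 without array 3 and -0.10 without array 6.

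Among lipoprotein receptors, 1 of 5 was higher and 4 were lower. Lrp8, the apolipoprotein E receptor 2, had log2 intensities of 7.20, 7.03 and 6.87 with Cre and of 7.35, 7.23 and 7.71 without, and differed by -0.40 ± 0.15 (SE, adjusted p = 0.294 in limma). Its groups did not overlap, with the values close to the filter. Without array 6 the Lrp8 difference was -0.25, and without arrays 1 and 6 it was -0.34. Lrp1, the large endocytic receptor, differed by -0.11, or by -0.059 without array 2 and -0.16 without array 3.

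Among fatty acid transporters and proteins that modify CD36, 1 of 6 was higher and 5 were lower. Fyn, a kinase of the Src family that acts downstream of CD36, had log2 intensities of 8.72, 8.83 and 8.76 with Cre and of 9.01, 8.94 and 8.98 without. Its groups were compact and did not overlap, with a difference of -0.21 ± 0.068 (SE, adjusted p = 0.267 in limma). Zdhhc4, an enzyme that palmitoylates CD36, differed by -0.16, or by -0.097 without array 6 and -0.25 without array 1.

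The binding proteins other than Fabp4 and Fabp5 were divided, with 4 of 8 higher and 4 lower. Acbd6, an acyl-CoA binding protein, differed by -0.29, or by -0.18 without array 6 and -0.17 without arrays 1 and 6. Fabp3, the heart type, differed by -0.44 ± 0.24 (SE, adjusted p = 0.399 in limma), with its highest value, 7.91, on array 6. Without array 6 the Fabp3 difference was -0.18, and without arrays 1 and 6 it was -0.24. Fabp9, a binding protein of the testis, was chosen after its values were seen. Its log2 intensities were 5.52, 5.64 and 7.32 with Cre and 6.13, 7.51 and 10.07 without. Fabp9 was highest on array 6, one of the arrays with high epididymal genes. It was lowest on array 1, where the epididymal mean was highest, at 7.49.

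Of the acyl-CoA synthetases, which share the activation step with Acsl1, 4 of 8 were higher and 4 lower. Acss3, a mitochondrial short-chain synthetase, had log2 intensities of 9.06, 9.12 and 9.34 with Cre and of 8.78, 8.97 and 8.60 without. The groups did not overlap, and the difference was 0.39 ± 0.12 (SE, adjusted p = 0.266 in limma). It was 0.19, 0.17 or 0.016 with the macrophage, endothelial or mature adipocyte mean as a covariate. Acss1, the mitochondrial acetyl-CoA synthetase, differed by -0.36, or by -0.22 without array 3.

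The thioesterases, which reverse the step, had 2 of 6 higher and 4 lower, with Acot7 at -0.43 ± 0.17 and Acot11 at -0.25 ± 0.084 (SE, adjusted p = 0.297 and 0.271 in limma), and neither gene's groups overlapped. Log2 intensities of Acot11 were 6.86, 7.04 and 6.94 with Cre and 7.29, 7.12 and 7.19 without, close to the filter. Without array 6 the Acot7 difference was -0.27, with an unadjusted p of 0.0818 in limma, and without arrays 1 and 6 it was -0.25.

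Of the PPAR regulators, 5 of 8 were higher and 3 lower. Ppargc1a, a coactivator of PPAR gamma and of mitochondrial genes, had log2 intensities of 7.61, 7.38 and 7.92 with Cre and of 7.32, 7.27 and 7.21 without. The groups did not overlap, although array 2 lay near array 4. The difference was 0.37 ± 0.14 (SE, adjusted p = 0.295 in limma). It was -0.13, 0.15 or 0.039 with the macrophage, endothelial or mature adipocyte mean as a covariate. Without array 3 and with no covariate it was 0.23. Pparg itself differed by 0.25 ± 0.14 (SE, adjusted p = 0.418 in limma), and its highest value, 10.95, was on array 3, without which the difference was 0.14.

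Regulators of lipid uptake by endothelium had the largest median difference of the role groups, 0.25, with 6 of 7 higher. In 4 of the 7 the groups did not overlap, all in the higher direction, as for 5.82% of all genes tested. Flt1, the receptor of VEGF-B on endothelial cells, had log2 intensities of 9.60, 9.42 and 9.74 with Cre and of 9.28, 9.12 and 8.88 without. The groups did not overlap, and the difference was 0.49 ± 0.13 (SE, adjusted p = 0.266 in limma). It was 0.38 without array 6 and also 0.38 without arrays 1 and 6. Aplnr, the apelin receptor, differed by 0.25, or by 0.15 without array 6 and 0.17 without arrays 1 and 6. With the macrophage, endothelial or mature adipocyte mean as a covariate, Flt1 differed by 0.21 ± 0.23, 0.11 ± 0.14 or 0.15 ± 0.17. Aplnr then differed by 0.25, -0.028 or 0.022.

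**Figure D4:**
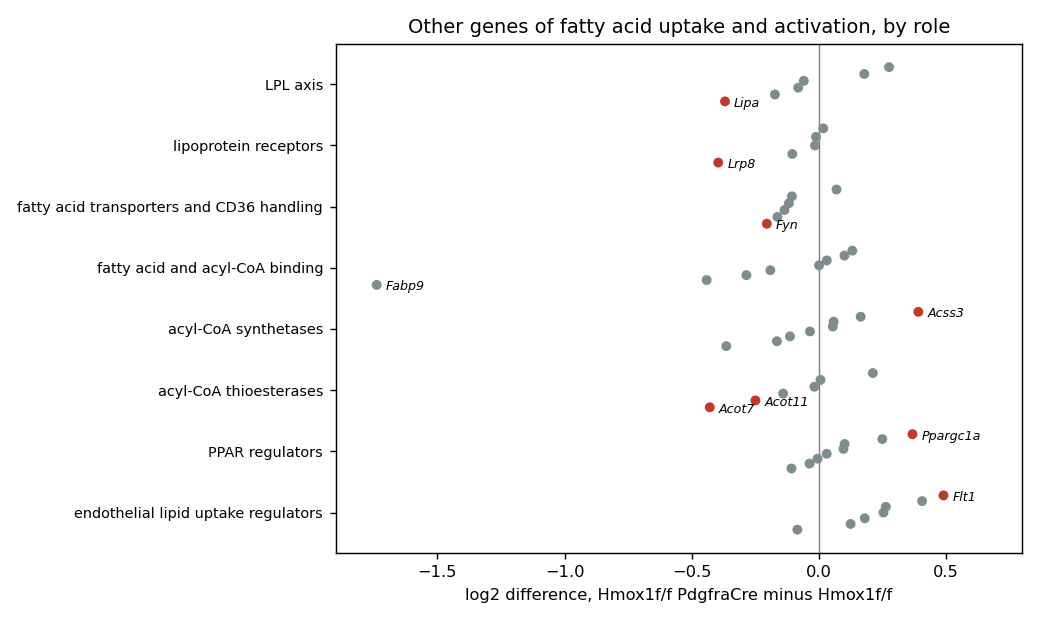
Log2 difference of Hmox1f/f PdgfraCre from Hmox1f/f (horizontal axis) for the 54 tested genes of the pathway outside the main group, in rows by role; each point is 1 gene, red points had an unadjusted limma p under 0.05 and none passed the adjusted threshold. Points of the endothelial regulators lie mostly to the right of 0. Those of the joint row of fatty acid transporters and CD36 handling, most of which are not transporters, lie mostly to the left, as do 57.4% of all genes tested. Fabp9, at -1.74 ± 1.03 (SE), is the lowest of all.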

How the data were processed

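RNA from 6 pools of 2 mice, 3 per genotype, was measured on Affymetrix mouse gene arrays, and samples were grouped by genotype as given in the labels. For each probeset the authors deposited an intensity, not on a log scale, as a whole number from 8 to 20701, made with RMA in Affymetrix Expression Console 1.1 according to the submitters' processing notes. Quantile normalization within RMA hides a shift shared by most genes. The genome build is not given in the sources used here.

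Log2 was taken. Of 35556 probesets, 21789 carried 1 symbol, 1621 several and 12146 none here. For genes with several probesets the one with the highest mean was used. Genotypes were compared in R 4.3.3 by the two-sided lmFit and eBayes test of limma 3.58.1, with variances moderated over 19938 genes, and Benjamini-Hochberg adjustment over the 11024 genes tested. The model was tested on simulated data. The number of arrays limits the precision.

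The members and all lists were chosen with earlier results of these data known. Named were the members, Hmox1, Pdgfra, every listed pathway gene at an unadjusted p under 0.05, up to 2 tested genes of smallest p per role, and the closest gene to each member. Adipoq, Cd68, Cdh5, Fabp9, Pi16 and the markers or untested genes mentioned fall outside this rule and were chosen after their values were seen. Other settings were filters, normalization, moderation, arrayWeights, probeset means, omitted arrays and marker means as covariates. Covariate means were taken over the tested markers of a list. The list means and summed intensities given by array were taken over all its markers found, also those below the filter. Moderating variances over the tested genes alone was added after seeing the data. Plots used matplotlib 3.10.9 under Python 3.11.15.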

Additional observations from a re-analysis of the deposited data

How the results depend on the processing

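Under each of 19 other settings, 0 of the 8 genes and 0 of all genes passed the adjusted threshold in limma. As reported, 1740 genes had an unadjusted p under 0.05, and the settings gave from 134 to 2415. Of 147 values of the 8 genes under the other settings, 20 turned sign. No paired analysis was possible because the replicate numbers 1 to 3 and 4 to 6 are not shared between genotypes. The cause was not tested. Marker means differed between genotypes without overlap, and as covariates they raised the median standard error of all genes from 0.10 to between 0.15 and 0.17. With 3 arrays per genotype, a difference as large as the ends of each interval given is compatible with the data of that gene.

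The number of the 8 genes at an unadjusted p under 0.05, 2 as reported, was 1 after a further quantile normalization, 0 without arrays Hmox1f/f PdgfraCre 1 and Hmox1f/f 6 together, and 0 with the macrophage, 0 with the endothelial and 0 with the adipocyte mean as a covariate. It ranged from 0 to 2 when each array was left out, and was 0 without array 1, 5 or 6 and 1 without array 2 or 3. The number of other pathway genes, 8 as reported, was 1 without arrays 1 and 6 together and 1, 0 and 0 with the macrophage, endothelial and adipocyte covariates. It ranged from 3 to 9 when each array was left out, with 3 without array 6 and 5 without array 1. The median difference of the 8 genes, 0.048 as reported, was 0.26 under a filter from the study's methods that also asks for a large spread and kept 3 of them, -0.00076 with arrayWeights, and -0.031, -0.052 and -0.11 with the macrophage, endothelial and adipocyte covariates.

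Centring each array gave -0.0079 for Cd36. With arrayWeights Cd36 was -0.071 and Angptl4 -0.0021. Leaving out each array gave Cd36 from -0.033 without array 6 to 0.063, with -0.024 without array 3, and Angptl4 from -0.041 without array 6 to 0.067. Without arrays 1 and 6 together Angptl4 was -0.047. The macrophage covariate turned Cd36 to -0.045, Vldlr to -0.050, Lpl to -0.075, Fabp4 to -0.017, Lipa to 0.00058, Ppargc1a to -0.13, Acss1 to 0.098 and Pparg to -0.063. The endothelial covariate turned Cd36 to -0.10, Vldlr to -0.0047, Lpl to -0.0055, Angptl4 to -0.11, Acot7 to 0.049, Aplnr to -0.028, Lmf1 to 0.036 and Fabp3 to 0.26. The adipocyte covariate turned Cd36 to -0.18, Vldlr to -0.24, Lpl to -0.099, Angptl4 to -0.041, Fabp4 to -0.049, Lrp8 to 0.076, Acot7 to 0.060, Acss1 to 0.097, Lmf1 to 0.11, Zdhhc4 to 0.065, Pparg to -0.17 and Fabp3 to 0.35. Gpihbp1, Slc27a1 and Fabp5 kept their direction in every setting in which they were fitted, from 0.060 to 0.52, from -0.17 to -0.057 and from -0.37 to -0.0043.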
